A study of Mus musculus with 36 samples.

Results

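The genes described here are 10 transcription factor genes that belong to, or are switched on together with, activator protein 1 (AP-1): Fos, Fosb, Fosl1, Fosl2, Jun, Junb, Jund, Atf3, Egr1 and Myc. They were chosen by name and not by a threshold on a measured value. Their rows were taken from an RNA-seq read count table of 29996 RefSeq transcripts, of which 28978 could be paired with 20458 gene symbols. All 36 libraries were made from kidney RNA of C57BL/6 mice, with 3 libraries in each of 12 groups. WT mice carried the floxed Pkd1f/f or Pkd2f/f alleles without Cre, and KO mice carried the same floxed alleles with HoxB7-Cre (Pkd1f/f:HoxB7-Cre or Pkd2f/f:HoxB7-Cre). Kidneys were taken at postnatal day 1 (P1), day 3 (P3) and day 7 (P7). HoxB7-Cre acts in the ureteric bud and the collecting ducts that grow from it, so cells of other lineages in the KO kidneys kept the floxed gene. The 8 genes Fos, Fosb, Fosl1, Fosl2, Jun, Junb, Atf3 and Egr1 have 1 row each in the table and were counted in all 36 libraries. The 2 rows of Jund and the 4 rows of Myc were at 0 in every library.

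AP-1 is a dimer of a Fos protein with a Jun protein, or of Jun proteins with each other or with an ATF protein, that binds DNA through a basic leucine zipper. Most of these genes are immediate early genes: they are transcribed from preexisting factors soon after growth factors, stretch, injury or the handling of tissue, and their mRNAs are short-lived. The set splits by role into strong activators (Fos, Fosb, Jun), partners that lack a strong activation domain (Fosl1, Fosl2, Junb), the stress-induced Atf3, the zinc finger factor Egr1, and Myc, which drives growth and ribosome production. In bulk kidney RNA, fewer cells of a type and less RNA per cell cannot be told apart.

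The stretches just upstream of the start sites are shown to describe the genes. Whether these sequences bear on the differences between KO and WT kidneys was not tested. Upstream sequence was matched for 7 of the 10 genes in RefSeq (build GRCm38.p6), and Fosl1, Egr1 and Myc are named only. Jund, which had no counts, was searched but is not shown. Each line gives the 110 bases before the start used in the RefSeq promoter set, 5′ to 3′ on the strand of the gene. For Fosb this start lies inside the gene's annotated span, so 73 of its 110 bases, with the TGACG, fall within that span, while the other 5 lines end where the span begins. Capitals mark the letters of 3 motifs: TGACG (or its reverse complement CGTCA), the core that ATF and CREB factors bind, TGACATCA, a variant of the AP-1 site, and the TATA box TATAAA.
Fos (chr12:85473780-85473889, plus strand): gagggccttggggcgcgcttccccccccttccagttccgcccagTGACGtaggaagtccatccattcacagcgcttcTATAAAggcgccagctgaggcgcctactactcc
Fosb (chr7:19310046-19310155, minus strand): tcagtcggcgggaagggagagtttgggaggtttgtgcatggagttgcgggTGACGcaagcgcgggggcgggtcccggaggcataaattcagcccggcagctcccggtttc
Jun (chr4:95052223-95052332, minus strand): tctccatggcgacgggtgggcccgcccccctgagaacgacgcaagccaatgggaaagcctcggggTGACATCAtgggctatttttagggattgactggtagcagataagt
Junb (chr8:84978749-84978858, minus strand): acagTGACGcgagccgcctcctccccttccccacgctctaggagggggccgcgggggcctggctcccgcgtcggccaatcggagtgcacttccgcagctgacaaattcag
Atf3 (chr1:191183334-191183443, minus strand): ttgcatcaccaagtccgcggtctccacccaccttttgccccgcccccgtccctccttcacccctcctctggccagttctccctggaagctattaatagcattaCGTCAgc
Fosl2 (chr5:32136362-32136471, plus strand): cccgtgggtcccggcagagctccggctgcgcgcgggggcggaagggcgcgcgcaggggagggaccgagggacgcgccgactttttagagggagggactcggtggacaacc
The search covered both strands of the 250 bases before each start. TGACG was present in Fos (first base at -66 and at -129 from the start), Fosb (-60), Junb (-106) and Atf3 (-7), and in 17.8% of all 32851 RefSeq promoters in the same window. Jun held TGACATCA at -45, which 2.93% of all promoters hold. Fos held TATAAA at -33, which 12.4% of all promoters hold. The full sites TGACGTCA (1.55% of all promoters, and containing TGACG) and TGACTCA (4.46%) and the CArG box bound by serum response factor (1.47%) were in none of the 7 windows. Bases farther upstream were not searched, nor was any sequence of Fosl1, Egr1 and Myc. Fosl2 and Jund held none of the 6 motifs. A match of letters describes the sequence and was not tested as a binding site.

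Library totals ran from 7179152 to 15850818 counts with a median of 13143336. Values are given as normalized CPM, counts scaled to 1 common library size with TMM factors. The deleted genes did not mark the labels strongly in whole kidney: for Pkd1 in the Pkd1 model the log2 difference of KO against WT was -0.20, -0.07 and 0.10 at P1, P3 and P7, and for Pkd2 in the Pkd2 model it was -0.21, 0.01 and -0.29, of which only the last passed the test (edgeR adjusted p = 0.0122). Markers of proximal tubule, collecting duct and podocytes were present in every group, and Avpr2 was the only one of those 12 markers at 0. Counts of 4 Y-linked genes separated 18 libraries with 3926 to 5041 counts from 18 with at most 5. At P7 in the Pkd1 model all 3 KO and none of the 3 WT libraries had Y-linked counts, so genotype and Y status cannot be told apart there. Adrenal cortex markers (Star, Cyp11a1, Cyp11b1 and Hsd3b1 together) reached 2649 CPM in P3 WT library 2 of the Pkd2 model, 788 in P7 KO library 1 of the Pkd1 model and 795 in P7 KO library 3 of the Pkd2 model. Nothing in the labels says whether replicate libraries came from separate mice, so p-values measure the spread between these libraries. Y-linked counts were present in 2 of 3 P1 WT libraries of the Pkd1 model. In the Pkd2 model they were present in 1 of 3 WT libraries at P1, 1 of 3 at P3 and 2 of 3 at P7. The libraries of each of these groups thus did not all come from 1 mouse.

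Per kilobase of transcript, Jun was the most abundant of the 8 counted genes over the 36 libraries, with a mean of 36.4 CPM per kb, followed by Egr1 (34.2), Fosl2 (20.5), Junb (15.7), Fos (6.55), Atf3 (4.65), Fosl1 (2.64) and Fosb (0.756). The ranges of the 12 group means overlapped for every pair of neighbours in this order. The genes differed in how much they varied between libraries. Fosl1 ranged over the 36 libraries by a factor of 2.02 and Fosl2 by 2.74, while Fos ranged by 30.3 and Fosb by 87.8. In P7 KO kidneys of the Pkd1 model the order was led by Egr1 (77.7 CPM per kb) and Jun (62.7), and in P7 WT kidneys by Jun (33.5) and Fosl2 (16.3), followed by Egr1 (14.6).

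**Figure D1:**
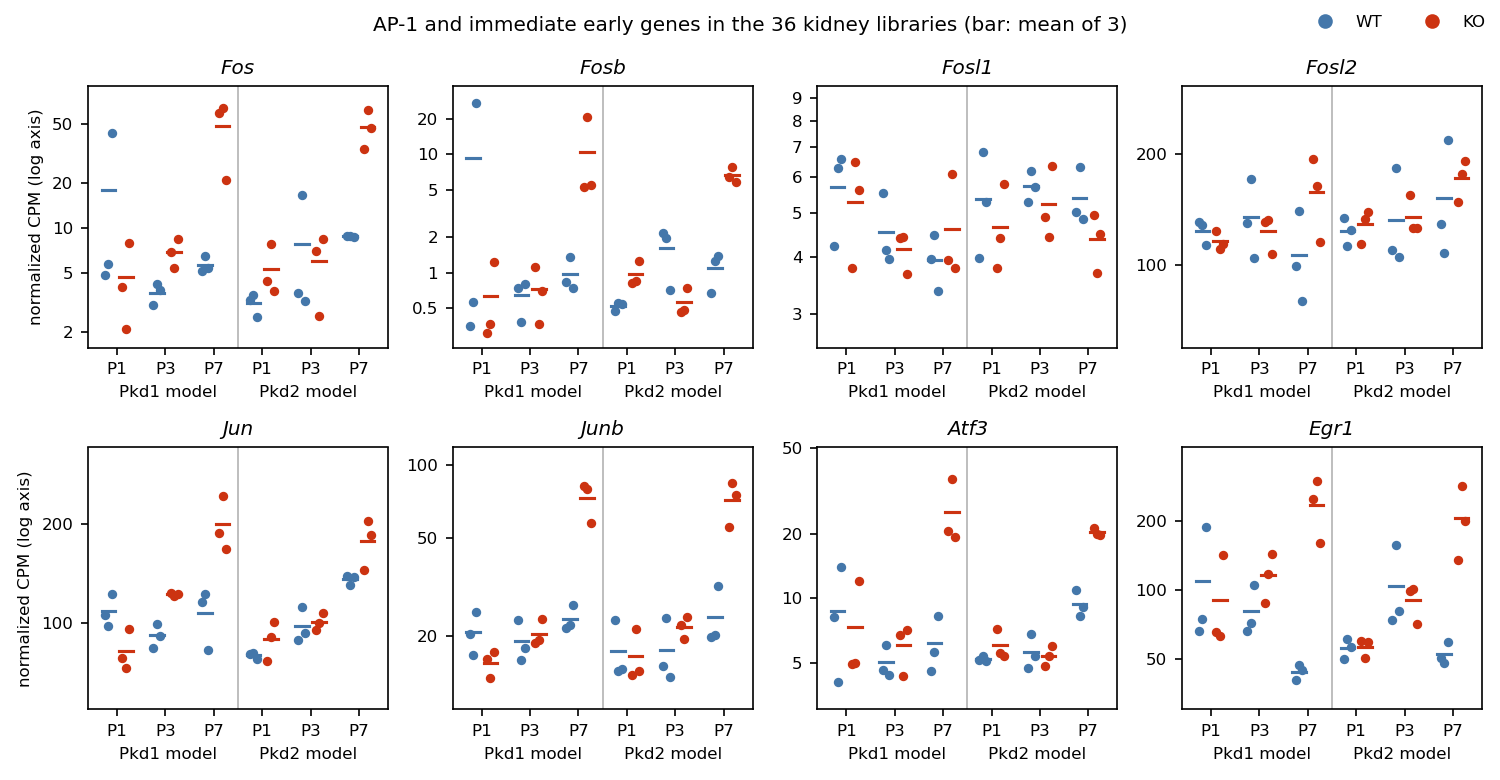
Normalized CPM (log axis) of the 8 counted genes in each of the 36 libraries by model, age and genotype; points are libraries and bars are means of 3. Fos, Fosb, Junb, Atf3 and Egr1 are higher in every P7 KO library than in every P7 WT library of the same model, and 1 Pkd1 P1 WT library is high for Fos (43.3 CPM) and Fosb (27.1 CPM).

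At P7, Fos, Fosb, Junb, Atf3 and Egr1 were higher in KO kidneys of both models, and Jun passed the test in the Pkd1 model. A gene was counted as passing when edgeR's quasi-likelihood test gave a Benjamini-Hochberg adjusted p below 0.05 over all transcripts tested. In the Pkd1 model 6 of the 8 counted genes passed, all higher in KO, against 13.7% of all 12527 transcripts tested in either direction and 6.2% higher in KO. The same 6 genes were higher in every KO than in every WT library, a pattern shown by 19.1% of all transcripts in the upward direction. The Pkd2 model had 5 of 8 passing, all higher in KO, against 13.9% of 12633 transcripts in either direction and 7.82% higher, and 6 genes were higher in every KO than in every WT library, against 19.2% of all transcripts. The median log2 difference over the 8 genes was 1.83 for Pkd1 and 1.35 for Pkd2, beside -0.006 and 0.002 over all transcripts.

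Fos, the founding member of the family (chr12:85473890-85477274 in GRCm38), had 58.9, 63.9 and 21.1 CPM in the 3 P7 KO libraries of the Pkd1 model and 5.15, 6.46 and 5.42 CPM in the WT libraries. The groups did not overlap, and KO library 3 lay well below the other KO libraries. Its log2 difference was 3.07 ± 0.40 (SE; edgeR adjusted p = 0.00697). Kidneys of the Pkd2 model gave Fos values of 33.6, 61.8 and 47.1 CPM in KO and of 8.87, 8.81 and 8.76 CPM in WT. WT libraries lay within a narrow band and the groups were again apart, with a log2 difference of 2.44 ± 0.21 (edgeR adjusted p = 0.000680).

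Fosb, whose protein pairs with Jun proteins as Fos does (chr7:19302696-19310118), had the lowest level per kb of the counted genes in WT kidneys at P7. It had 5.29, 20.8 and 5.47 CPM in Pkd1 KO libraries and 0.835, 1.36 and 0.733 CPM in WT libraries. KO library 2 stood above the other KO libraries, and the log2 difference was 3.41 ± 0.63 (edgeR adjusted p = 0.0165). KO libraries of the Pkd2 model had 6.43, 7.86 and 5.83 CPM and the WT libraries 0.676, 1.25 and 1.38 CPM. The groups did not overlap, and the log2 difference was 2.60 ± 0.30 (edgeR adjusted p = 0.00197). The WT values of Fosb rest on 9 to 20 counts per library.

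The Fos-related genes Fosl1 (chr19:5447698-5455938) and Fosl2 (chr5:32136472-32157840), which encode Fra-1 and Fra-2, did not pass at P7 in either model. Fosl1 had 3.95, 6.09 and 3.79 CPM in Pkd1 KO against 3.96, 4.48 and 3.37 CPM in WT, with overlapping groups and a log2 difference of 0.22 ± 0.31 (edgeR adjusted p = 0.650). Its Pkd2 values were 4.96, 3.70 and 4.51 CPM in KO and 5.04, 6.31 and 4.86 CPM in WT, a log2 difference of -0.30 ± 0.21 (edgeR adjusted p = 0.401). The sign thus differed between the models, and neither value passed. Fosl2 had 195, 164 and 116 CPM in Pkd1 KO against 99.9, 140 and 79.9 CPM in WT, where the highest WT library exceeded the lowest KO library. Its log2 difference was 0.56 ± 0.24 (edgeR adjusted p = 0.144). Its Pkd2 values were 149, 177 and 192 CPM in KO and 129, 108 and 219 CPM in WT, a log2 difference of 0.19 ± 0.23 (edgeR adjusted p = 0.632). WT library 3 was the highest of the 36 libraries for Fosl2, and without it the difference was 0.54 (edgeR adjusted p = 0.0165).

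Jun, the main dimer partner of Fos (chr4:95049036-95052222), had 188, 244 and 168 CPM in P7 KO libraries of the Pkd1 model and 116, 122 and 82.9 CPM in WT libraries. The groups did not overlap and the log2 difference was 0.90 ± 0.19 (edgeR adjusted p = 0.0243). This call was lost when KO library 1, KO library 2 or WT library 1 was left out (edgeR adjusted p from 0.0560 to 0.0876). Values of Jun in the Pkd2 model were 145, 204 and 185 CPM in KO and 139, 130 and 138 CPM in WT. KO library 1 lay just above the WT libraries. The log2 difference was 0.40 ± 0.12 and missed the threshold (edgeR adjusted p = 0.0578), while DESeq2 gave an adjusted p of 0.0125.

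Junb, which pairs with Fos proteins and is a weaker activator than Jun (chr8:84976909-84978748), had 81.8, 79.7 and 57.7 CPM in Pkd1 KO libraries and 21.6, 22.2 and 26.9 CPM in WT libraries. Its log2 difference was 1.63 ± 0.17 (edgeR adjusted p = 0.00394). Values of Junb in the Pkd2 model were 55.6, 83.9 and 74.9 CPM in KO and 19.8, 20.2 and 31.9 CPM in WT, a log2 difference of 1.59 ± 0.21 (edgeR adjusted p = 0.00378). Groups did not overlap in either model. The KO means of the models lay close together, at 73.1 ± 13.4 CPM (Pkd1) and 71.5 ± 14.4 CPM (Pkd2; SD, n = 3).

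Atf3, induced by stress of many kinds and often a repressor (chr1:191170296-191183333), had 20.7, 36.1 and 19.4 CPM in Pkd1 KO libraries and 4.59, 5.64 and 8.28 CPM in WT libraries at P7. The groups were apart, with a log2 difference of 2.04 ± 0.32 (edgeR adjusted p = 0.0112). For the Pkd2 model Atf3 values were 21.3, 19.9 and 19.7 CPM in KO and 10.9, 8.26 and 9.08 CPM in WT. KO libraries lay close together and the log2 difference was 1.11 ± 0.14 (edgeR adjusted p = 0.00274).

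Egr1, a zinc finger factor that serum and injury induce along with Fos (chr18:34861207-34864956), had 248.8, 298 and 160 CPM in Pkd1 KO libraries and 40.5, 47.2 and 44.8 CPM in WT libraries. Its log2 difference was 2.41 ± 0.22 (edgeR adjusted p = 0.00218). For the Pkd2 model Egr1 values were 135, 284 and 201 CPM in KO and 50.7, 48.4 and 59.7 CPM in WT, a log2 difference of 1.97 ± 0.24 (edgeR adjusted p = 0.00260). In both models the lowest KO library was far above the highest WT library.

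Jund and Myc gave no value. Of the rows of genes with several transcript rows, 57.5% were at 0 in every library, against 15.3% for genes with 1 row, and 1057 of 4726 genes with several rows (22.4%) had all rows at 0. HTSeq, the counter named in the submitters' processing notes, leaves out reads that overlap more than 1 feature in its default setting. Whether this emptied the rows of Jund and Myc was not tested, and the table gives no measure of their expression.

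Several measures moved with the P7 difference. With Y status as a covariate in a fit of all 18 Pkd1 libraries, 0 of 8 genes passed at P7 by edgeR (3 at an unadjusted p below 0.05, and 6 of all 12527 transcripts passed). The log2 differences became 1.01 for Fos, -1.18 for Fosb, 0.68 for Jun, 1.19 for Junb, 0.59 for Atf3 and 1.65 for Egr1. In this fit the Y term is estimated from the 3 P1 WT libraries alone, because every other Pkd1 group had Y-linked counts in all or none of its libraries. Of these 3, libraries 1 and 3 had Y-linked counts, and library 3 was far above both others, with Fos at 43.3 CPM against 4.86 (library 1) and 5.75 (library 2) and Fosb at 27.1 CPM against 0.353 and 0.561. Library 3 is thus 1 of the 2 libraries with Y-linked counts behind the Y term, and the fit with the covariate was not run without it. In the Pkd2 model, where all 3 P7 KO and 2 of 3 WT libraries had Y-linked counts, 6 of 8 genes passed in the fit with the covariate. Leaving out the 1 Pkd2 P7 WT library without Y-linked counts left 5 libraries that all had them. The log2 differences were then 2.42 for Fos, 2.78 for Fosb, 1.84 for Junb, 1.08 for Atf3 and 2.06 for Egr1 (edgeR adjusted p from 0.000480 to 0.00325), and 6 genes passed. Since all transcripts passing changes with the fit, neither count for the Pkd2 model can be read against the share of its main P7 fit.

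The P7 differences were also computed without the KO libraries that held adrenal cortex markers. Without KO library 1 of the Pkd1 model 5 of 8 genes passed (Jun did not), with log2 differences of 2.91 for Fos and 2.38 for Egr1. Without KO library 3 of the Pkd2 model the same number, 5 of 8, passed, with 2.45 for Fos and 1.56 for Junb. Without WT library 1 of the Pkd1 model 3 genes passed (Fos, Junb and Egr1) and Fosb (edgeR adjusted p = 0.0720), Jun (0.0795) and Atf3 (0.0518) did not, at log2 differences of 3.31, 0.96 and 1.86. Of all 12527 transcripts 224 passed without this library, against 1721 with it. All transcripts passing thus changed with the fit. Counts of genes passing without a single library cannot be read against the share of the fit with all 6 libraries.

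Markers of other cell types also differed between KO and WT kidneys at P7. The summed level of the 4 smooth muscle and myofibroblast markers was 3698 to 3996 CPM in Pkd1 KO against 1238 to 1357 in WT, and 3850 to 4283 against 1079 to 1223 in the Pkd2 model. All 5 macrophage markers were above 0, with sums of 274 to 299 CPM against 178 to 205 and of 259 to 316 against 176 to 190. Collecting duct markers (4 of 5 above 0) summed to 272 to 401 CPM in Pkd1 KO and 816 to 932 in WT, and the 4 proximal tubule markers summed to 1269 to 2200 CPM in KO and 3284 to 4371 in WT. For the Pkd2 model the collecting duct markers summed to 330 to 420 CPM in KO and 697 to 1088 in WT, and the proximal tubule markers to 2411 to 2683 and 3402 to 4395. Neutrophil markers, with S100a9 at 0 and 2 of 4 above 0, summed to 5.68 to 8.76 CPM in Pkd1 KO against 1.29 to 3.06 in WT, and to 1.47 to 4.19 against 1.73 to 2.36 for the Pkd2 model. Podocyte markers summed to 872.5 to 1254 CPM in Pkd1 KO against 1296 to 1821 in WT, and to 1058 to 1584 against 1654 to 2001 for the Pkd2 model. The part of these cell types in the higher AP-1 gene counts was not tested.

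At P1 and P3 no gene of the set passed the test of KO against WT in either model. In the Pkd1 model at P1, 0 of 8 passed by edgeR and by DESeq2, with 0% of all transcripts passing by edgeR. At an unadjusted edgeR p below 0.05 were 2 of 8 and 161 of all 12527 transcripts. Same-numbered KO and WT libraries deviated together there, and Fos, Fosb, Jun, Junb and Egr1 were lower in the KO library in all 3 pairs. With the replicate number as a block, 0 of 8 passed and these 5 genes had an unadjusted edgeR p below 0.05 (adjusted p from 0.107 for Jun to 0.692 for Egr1). How many of all transcripts were lower in all 3 pairs, or had such a p with the block, was not counted. The pairs were taken from these same data, since the labels give no shared litter. The pairs and the block thus give no independent test of lower levels in KO. At P3 in the same model 0 of 8 passed by edgeR, with 0.00798% of all transcripts. DESeq2 passed 1 of 8 there, and 248 of all 12527 transcripts. An unadjusted edgeR p below 0.05 was found for 3 of 8 and for 1767 of all 12527 transcripts. For the Pkd2 model 0 of 8 passed at P1 and at P3 by both tools, with 0% of all transcripts by edgeR at both ages. Unadjusted, 1 of 8 had an edgeR p below 0.05 at each age, as had 708 (P1) and 563 (P3) of all 12633 transcripts. Single libraries were far from their groups at these ages.

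P1 WT library 3 of the Pkd1 model stood apart. Fos had 4.86, 5.75 and 43.3 CPM in the 3 P1 WT libraries and 4.01, 2.11 and 7.96 CPM in the KO libraries, and Fosb had 0.353, 0.561 and 27.1 CPM against 0.309, 0.364 and 1.24 CPM. Fosb of this WT library was the highest of all 36. Egr1 had 66.6, 75.1 and 188 CPM in WT and 66.0, 63.3 and 142 CPM in KO, and Atf3 had 8.21, 4.07 and 13.9 CPM in WT and 4.94, 5.02 and 12.1 CPM in KO. Library 3 was thus the highest of its group in both genotypes for all 4 genes. The log2 difference of Fosb at P1 was -3.89 ± 1.499 (edgeR adjusted p = 1) with the WT library and 0.50 without it. Jun had 78.4, 73.0 and 95.8 CPM in Pkd1 KO and 106, 98.3 and 122 CPM in WT, lower in every KO library, with a log2 difference of -0.41 ± 0.13 that did not pass (edgeR adjusted p = 1).

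At P3 in the Pkd1 model, Jun had 123, 121 and 123 CPM in KO libraries and 84.1, 99.7 and 91.6 CPM in WT libraries. KO libraries differed little among themselves and all lay above WT, yet the log2 difference of 0.41 ± 0.07 did not pass over all transcripts (unadjusted p = 0.000360, edgeR adjusted p = 0.162, DESeq2 adjusted p = 0.00348). Fos had 6.87, 5.39 and 8.44 CPM in KO and 3.05, 4.23 and 3.82 CPM in WT, with a log2 difference of 0.89 ± 0.23 (edgeR adjusted p = 0.185). Egr1 had 87.9, 118 and 143 CPM in KO and 66.5, 72.2 and 105 CPM in WT, with overlapping groups and a log2 difference of 0.51 ± 0.21 (edgeR adjusted p = 0.318). Fos and Jun thus had every KO above every WT library at P3, as 1290 of all 12527 transcripts did, and the other 6 genes overlapped.

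At P1 the Pkd2 model had 4.39, 7.77 and 3.797 CPM of Fos in KO libraries and 3.28, 3.58 and 2.53 CPM in WT. The groups did not overlap, but the log2 difference of 0.77 ± 0.31 did not pass (edgeR adjusted p = 0.864). Fosb had 0.818, 0.842 and 1.25 CPM in KO and 0.469, 0.551 and 0.536 CPM in WT, also apart, with a log2 difference of 0.90 ± 0.40 (edgeR adjusted p = 0.864). Atf3 was the only other gene with groups apart at P1 in this model (0.22 ± 0.20, edgeR adjusted p = 0.921). Of all 12633 transcripts, 731 were likewise higher in every KO than in every WT library. At P3 the WT libraries of this model had 3.68, 16.6 and 3.26 CPM of Fos, and library 2, which also held the adrenal cortex markers, was the highest. The same library was highest for Egr1, with 157 CPM against 74.4 and 81.6 CPM in the other WT libraries. KO libraries had 7.04, 2.59 and 8.43 CPM of Fos and overlapped with WT, at a log2 difference of -0.39 ± 0.73 (edgeR adjusted p = 0.966). Without WT library 2 the difference was 0.80 for Fos and 0.22 for Egr1, against -0.22 ± 0.30 for Egr1 with it, and neither passed. Fosb had 0.459, 0.485 and 0.739 CPM in KO and 2.14, 1.97 and 0.716 CPM in WT, where library 3 lay within the KO range. Its log2 difference of -1.51 ± 0.52 did not pass (edgeR adjusted p = 0.931).

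By a test of the change itself in the 18 libraries of a model, the difference between KO and WT was larger at P7 than at P1 for 6 genes of the Pkd1 model and 2 genes of the Pkd2 model. In the Pkd1 model 6 of 8 genes passed against 7.75% of all transcripts, with a change of the log2 difference of 5.04 ± 0.95 for Fos (edgeR adjusted p = 0.00621), 7.31 ± 1.61 for Fosb (0.0141), 1.31 ± 0.22 for Jun (0.00358), 2.06 ± 0.26 for Junb (0.000692), 2.33 ± 0.59 for Atf3 (0.0256) and 2.71 ± 0.53 for Egr1 (0.00801). P1 WT library 3 entered these values. Without it the change was 3.26 for Fos, 1.23 for Jun, 1.90 for Junb and 2.08 for Egr1, which passed, and 2.92 for Fosb and 1.83 for Atf3, which did not (edgeR adjusted p = 0.141 and 0.0737). Fosb also missed the threshold without P1 KO library 2 (edgeR adjusted p = 0.0516), and Atf3 passed in 6 of the 12 fits that each left out 1 library of these groups. With Y status as a covariate 0 of 8 passed by edgeR (2 at an unadjusted p below 0.05), and 0 of all 12527 transcripts passed.

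For the Pkd2 model 2 of 8 genes passed the test of the change from P1 to P7, against 1.3% of all transcripts. Junb changed by 1.66 ± 0.37 (edgeR adjusted p = 0.0361) and Egr1 by 1.95 ± 0.38 (0.0191). Both calls depend on single libraries: over the 12 fits that each left out 1 library, Junb passed in 3 (edgeR adjusted p from 0.021 to 0.0981) and Egr1 in 9 (from 0.00614 to 0.0558). Fosb changed by 1.71 ± 0.56 (0.155), Atf3 by 0.89 ± 0.23 (0.0738) and Fos by 1.67 ± 0.75 (0.300), and none of these passed. Fosl1 and Fosl2 passed in neither model, with changes of 0.34 ± 0.38 and 0.67 ± 0.29 for Pkd1 and of -0.10 ± 0.33 and 0.13 ± 0.33 for Pkd2. With the replicate number as a block, 1 of 8 passed in the Pkd2 model, since Junb moved to an adjusted p of 0.0583.

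**Figure D2:**
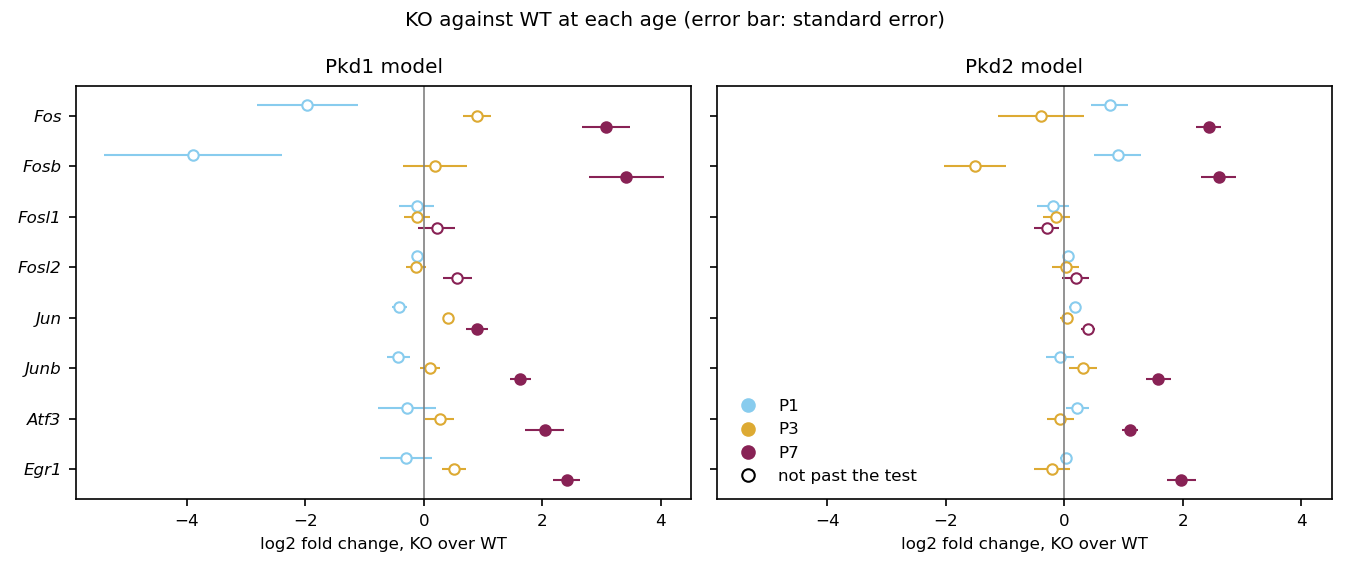
Log2 fold change of KO over WT (horizontal axis) with its standard error for the 8 counted genes at P1, P3 and P7 in each model; filled points passed edgeR's test over all transcripts. All filled points are at P7, from 0.90 (Jun, Pkd1 model) to 3.41 (Fosb, Pkd1 model), and at P1 in the Pkd1 model Fos and Fosb have wide bars around -1.96 and -3.89.

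A direct test of whether KO differed from WT by unequal amounts in the 2 models found no gene past the threshold at any age. By edgeR 0 of 8 passed at P1, P3 and P7, and 0% of all 13014 transcripts passed at each age. By DESeq2 0 of 8 passed at each age. An unadjusted edgeR p below 0.05 was found for 3, 2 and 2 of 8, and for 431, 1263 and 2143 of all transcripts. At P7 the Pkd1 difference minus the Pkd2 difference was 0.66 ± 0.48 for Fos, 0.83 ± 0.75 for Fosb, 0.53 ± 0.24 for Jun, 0.06 ± 0.29 for Junb, 0.94 ± 0.37 for Atf3 and 0.46 ± 0.35 for Egr1 on the log2 scale. All 6 values were above 0, and Fosl1 (0.54 ± 0.35) and Fosl2 (0.40 ± 0.38) were too. With SE of up to 0.75 (Fosb), these libraries do not show that the models act alike. For Atf3 the adjusted p was 0.247 by edgeR, and 0.0497 without P7 WT library 3 of the Pkd1 model. Without that library 1372 of all 13014 transcripts passed, and Atf3 was the only 1 of the 8 genes to do so.

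In WT kidneys 2 of 8 genes changed from P1 to P7 in each model, close to the share over all transcripts. They were Jun and Atf3 in the Pkd2 model and Fosb and Egr1 in the Pkd1 model, and the difference in change between the models was not tested. From P1 to P7, Jun rose in the Pkd2 model by 0.77 ± 0.12 on the log2 scale (edgeR adjusted p = 0.000276), from 79.7 ± 1.69 to 136 ± 4.70 CPM (mean ± SD, n = 3). Atf3 rose there by 0.85 ± 0.17 (edgeR adjusted p = 0.00154), from 5.22 ± 0.131 to 9.41 ± 1.35 CPM, and these 2 of 8 genes passed against 26.7% of all transcripts. In the Pkd1 model 2 of 8 passed against 25.8% of all transcripts, and both fell: Fosb by 3.26 ± 1.11 (edgeR adjusted p = 0.0392) and Egr1 by 1.32 ± 0.38 (0.0168). Both calls rest on P1 WT library 3. Without it the Fosb difference was 1.13, in the opposite direction, the Egr1 difference was -0.68, and neither passed. Leaving out P7 WT library 1 also ended both calls (edgeR adjusted p = 0.109 for Fosb and 0.0571 for Egr1), and leaving out P7 WT library 2 or 3 ended that of Fosb. From P1 to P3, 0 of 8 passed by edgeR in either model, against 0.439% and 1.43% of all transcripts. An unadjusted edgeR p below 0.05 was found for 2 and 4 of 8, and for 1985 of 12527 and 2461 of 12633 transcripts. DESeq2 passed Fos in the Pkd1 model and Fosb and Egr1 in the Pkd2 model, where it passed 384 and 636 of all transcripts. Without the Pkd2 P3 WT library that held adrenal cortex markers, the P3 minus P1 difference went from 1.33 to 0.14 for Fos and from 0.89 to 0.46 for Egr1.

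WT kidneys of the 2 models were also compared with each other at each age. No gene of the set passed by edgeR at P1, P3 or P7, while 0.138%, 5.07% and 0.0461% of all transcripts passed. Unadjusted, 4, 1 and 1 of 8 had an edgeR p below 0.05, as had 1522, 3165 and 953 of all 13014 transcripts. DESeq2 passed 1, 0 and 0 of 8, and at P1 it passed 250 of all 13014 transcripts. The gene that DESeq2 passed at P1 was Jun, at 0.45 ± 0.12 log2 higher in the Pkd1 model (DESeq2 adjusted p = 0.0400). The P1 values of Fos (2.53 ± 0.74) and Fosb (4.16 ± 1.25) again held P1 WT library 3, and without it the Fosb difference was -0.22.

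Within groups, libraries high in Fos were also high in 5 of the other 7 genes. How many genes outside the set follow Fos as closely was not counted, so the 5 of 7 has no share to be read against. Each library's log2 CPM was taken as a deviation from its group mean, and Fos was compared with each of the other 7 counted genes over the 36 libraries, with p-values from 100000 permutations of libraries within groups, two-sided and adjusted over the 7 relations. Egr1 followed Fos most closely (Pearson r = 0.74, permutation p = 0.00422, adjusted p = 0.00985, Spearman rho = 0.62, permutation p = 0.00580), then Fosb (r = 0.71, permutation p = 0.0113, adjusted p = 0.0199, rho = 0.50, permutation p = 0.0263). Junb (r = 0.63, permutation p = 0.000240, adjusted p = 0.00168, rho = 0.60, permutation p = 0.00108), Atf3 (r = 0.61, permutation p = 0.0224, adjusted p = 0.0313, rho = 0.45, permutation p = 0.0335) and Jun (r = 0.58, permutation p = 0.000930, adjusted p = 0.00325, rho = 0.64, permutation p = 0.000890) also passed. Fosl2 (r = 0.30, permutation p = 0.0878, adjusted p = 0.102, rho = 0.31, permutation p = 0.0880) and Fosl1 (r = 0.22, permutation p = 0.342, adjusted p = 0.342, rho = 0.18, permutation p = 0.409) did not. The adjusted permutation p of Spearman's rho was 0.0135 for Egr1, 0.0460 for Fosb, 0.00378 for Junb and Jun, 0.0469 for Atf3, 0.103 for Fosl2 and 0.409 for Fosl1.

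The 2 libraries farthest from the median of Fos were P1 WT library 3 of the Pkd1 model and P3 WT library 2 of the Pkd2 model. Without them r was 0.61 for Egr1, 0.58 for Fosb, 0.56 for Junb, 0.54 for Jun, 0.49 for Atf3, 0.29 for Fosl2 and 0.13 for Fosl1. Within the 18 Pkd1 libraries r was 0.89 for Egr1, 0.86 for Fosb, 0.72 for Atf3, 0.63 for Junb and 0.62 for Jun. Within the 18 Pkd2 libraries it was 0.49, 0.33, 0.37, 0.68 and 0.53 for Egr1, Fosb, Atf3, Junb and Jun. The difference between the models in these values was not tested. Of the 7 relations 3 passed within the Pkd1 libraries and 1 within the Pkd2 libraries.

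**Figure D3:**
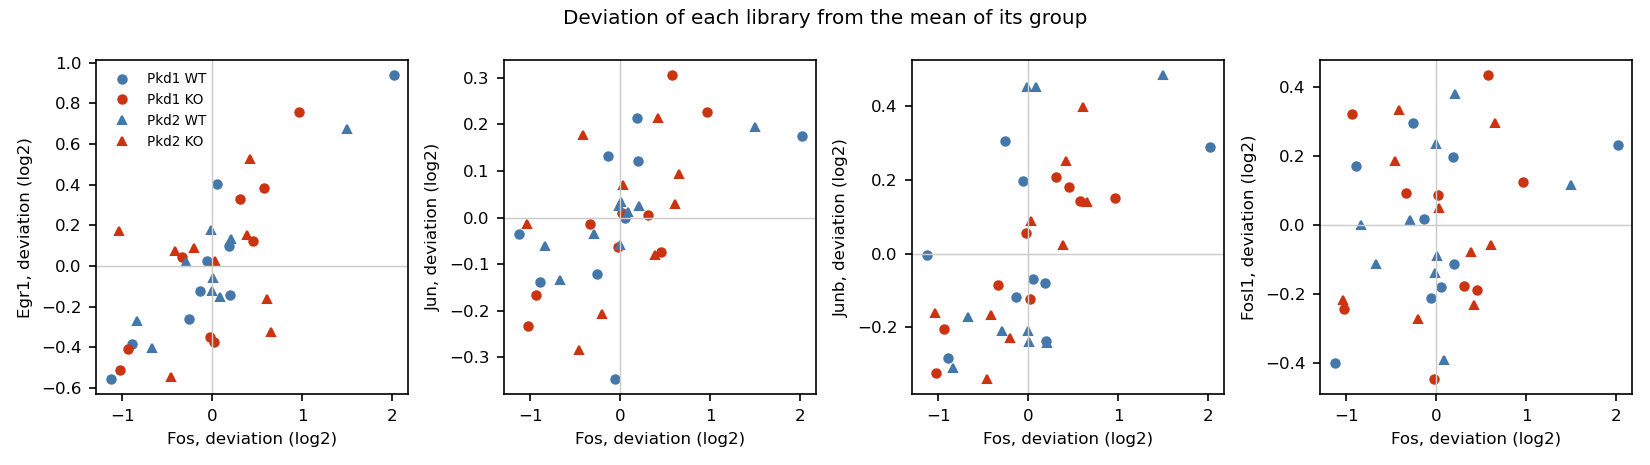
Deviation of each of the 36 libraries from its group mean in log2 CPM, for Fos (horizontal) against Egr1, Jun, Junb and Fosl1 (vertical); color gives genotype and shape the model. Points run from lower left to upper right for Egr1 (r = 0.74), Junb (r = 0.63) and Jun (r = 0.58) and scatter for Fosl1 (r = 0.22).

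Among 9967 other genes with at least 10 counts in every library, those most like Fos in these deviations were Dusp1 (r = 0.87), a phosphatase that inactivates MAP kinases, Nr4a1 (0.82), an orphan nuclear receptor induced early, N4bp2l1 (0.80), Zfp36 (0.77), which promotes decay of AU-rich mRNAs, and Esm1 (0.76), an endothelial secreted proteoglycan. For Jun they were Cox4i2 (0.79), Rnf2 (0.77), and Oas2, Helz2 and Zdhhc20 (0.76 each). These correlations over 36 libraries describe likeness and carry no test, and Myc could not be ranked.

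Most other immediate early genes that could be tested were also higher at P7. Of 30 listed genes 24 were tested in the Pkd1 model, and 15 passed as higher, 0 as lower. Of the same list 25 were tested in the Pkd2 model, and 16 passed as higher, 0 as lower, where 6.2% and 7.82% of all transcripts did. For these genes too, KO and Y status cannot be told apart at P7 in the Pkd1 model. The median log2 difference of the tested genes was 0.759 and 0.551. Egr2, a close relative of Egr1, differed most by fold (3.81 ± 0.38 and 4.13 ± 0.29 in the Pkd1 and Pkd2 models, edgeR adjusted p = 0.00291 and 0.000341). The secreted matricellular genes Ccn1 (1.98 ± 0.20 and 1.65 ± 0.12) and Ccn2 (1.75 ± 0.20 and 1.75 ± 0.15) passed in both models. Gadd45b, a stress-induced growth arrest gene, was higher by 1.97 ± 0.22 in the Pkd1 model (edgeR adjusted p = 0.00490), and Socs3, an inhibitor of cytokine signalling, by 2.097 ± 0.16 in the Pkd2 model (0.000495). At P3 none of these genes passed in either model by edgeR. Unadjusted, 9 of 24 (Pkd1) and 1 of 25 (Pkd2) had an edgeR p below 0.05, as had 1767 of 12527 and 563 of 12633 transcripts.

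**Figure D4:**
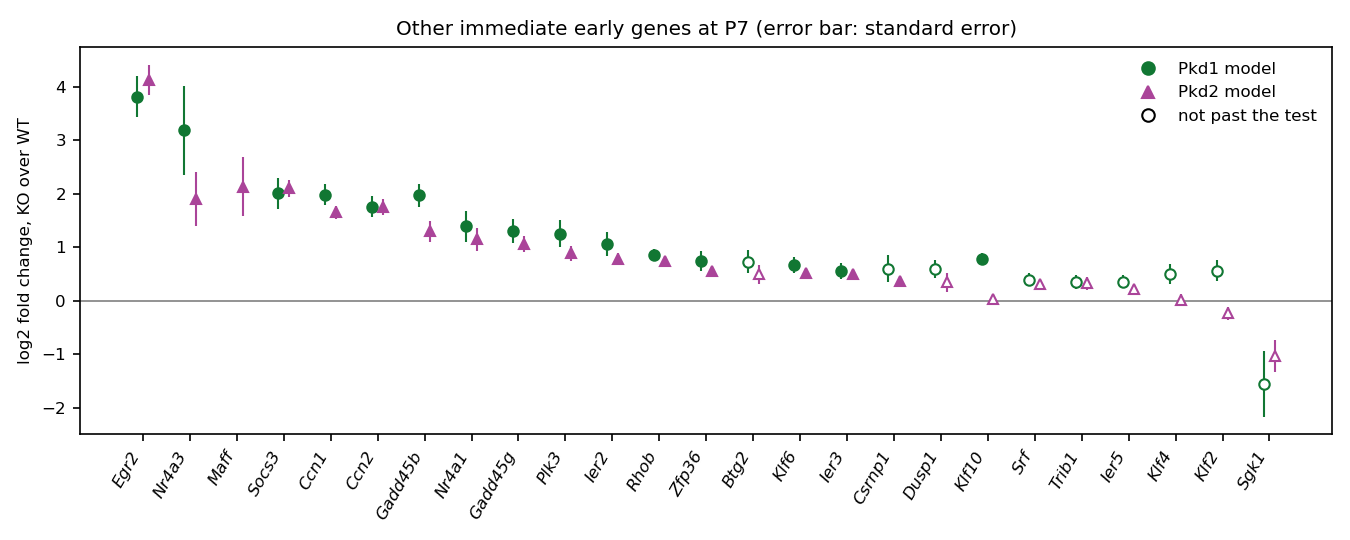
Log2 fold change of KO over WT at P7 with its standard error for the other immediate early genes tested in at least 1 model; circles are the Pkd1 and triangles the Pkd2 model, and filled symbols passed edgeR's test. Egr2 is the highest in both models (3.81 and 4.13), most genes are above 0, and no gene passed below 0.

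Other gene lists were read against the share of all transcripts passing at P7, which was 6.2% (Pkd1) and 7.82% (Pkd2) as higher and 13.7% and 13.9% in either direction. Heat shock genes, which rise with protein damage, passed at about that share. Of 11 tested in the Pkd1 model 1 passed (Hspb1, higher by 1.24 ± 0.18, edgeR adjusted p = 0.00910), and of 10 tested for Pkd2 1 passed (Hsp90aa1, higher by 0.32 ± 0.06, 0.0139), with medians of 0.171 and 0.030. Feedback inhibitors of MAP kinase signalling passed as higher for 5 of 13 in the Pkd1 model, led by Dusp2 (1.53 ± 0.29, edgeR adjusted p = 0.0171), where 6.2% of all transcripts did, and for 2 of 13 in the Pkd2 model (Dusp8 and Dusp14), where 7.82% did. Of the MAP kinase cascade itself 0 of 20 passed in the Pkd1 model by edgeR (4 at an unadjusted p below 0.05) and 1 of 20 in the Pkd2 model, the kinase gene Map3k1 (0.45 ± 0.06, edgeR adjusted p = 0.00433), against 13.7% and 13.9% of all transcripts in either direction. Unadjusted, 4209 of all 12527 transcripts had an edgeR p below 0.05 in the Pkd1 model.

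Among other leucine zipper partners of AP-1, Batf, known from lymphocytes, passed in both models (1.55 ± 0.33 and 1.09 ± 0.22, edgeR adjusted p = 0.0241 and 0.0167). Mafg passed as lower in the Pkd1 model (-0.52 ± 0.12) and Mafk as higher in the Pkd2 model (0.30 ± 0.07), so that 2 of 10 and 2 of 9 tested passed against 13.7% and 13.9% of all transcripts. Genes known from textbooks as AP-1 targets passed as higher for 6 of 17 (Pkd1) and 7 of 18 (Pkd2), against 6.2% and 7.82% of all transcripts, with 0 lower. The chemokine gene Ccl2 was higher by 3.27 ± 0.32 and 2.61 ± 0.38 (edgeR adjusted p = 0.00280 and 0.00531). The growth factor gene Hbegf (0.77 ± 0.15, edgeR adjusted p = 0.0184) passed in the Pkd1 model, and the intermediate filament gene Vim (0.65 ± 0.07, 0.00175) in the Pkd2 model.

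Myc itself was not measured, but its partners and targets were. Of the Myc partners 0 passed as higher and 1 as lower in each model, in both cases Mxd4, a repressor that competes with Myc for Max (-1.11 ± 0.22 of 9 tested and -0.25 ± 0.06 of 8 tested, edgeR adjusted p = 0.0194 and 0.0245), which is near the 13.7% and 13.9% of all transcripts that passed in either direction. Of 16 textbook Myc targets tested 7 passed as higher and 0 as lower in each model, against 6.2% and 7.82% of all transcripts as higher, with medians of 0.408 and 0.321. The nucleolar genes Nop58 (0.76 ± 0.12 and 0.44 ± 0.06) and Nop56 (0.64 ± 0.11 and 0.34 ± 0.06) passed in both models. Npm1 (1.41 ± 0.18, edgeR adjusted p = 0.00697) passed in the Pkd1 model.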

How the data were processed

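The deposited table holds raw read counts per RefSeq transcript of 36 kidney libraries. The submitters' processing notes name CASAVA 1.8.2, TopHat2 2.1.0, HTSeq and mm10, the study's methods give HTSeq default options, and the deposited counts are whole numbers that the authors had not normalized. Symbols came from RefSeq (GRCm38.p6) and transcript lengths from GENCODE. The members and gene lists were chosen with earlier results of these data known.

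Transcripts with at least 10 counts in 3 libraries of a model (or of all 36, for comparisons between models) were tested by edgeR 4.0.16 (R 4.3.3, TMM, quasi-likelihood F test, Benjamini-Hochberg over all transcripts). Each KO and WT comparison used its 6 libraries, changes with age the 18 of a model, and comparisons of models the 12 of an age. The SE is the absolute log2 fold change divided by the root of F. Scripts were checked on simulated counts. Normalized CPM used TMM over the 36 libraries. Correlations used log2 CPM with a prior count of 0.5. They were planned for 9 relations, and 7 remained because Jund and Myc had no counts. Genes outside the set were named by the smallest p in a list, at most 4 per list and comparison, or by the highest correlation with Fos or Jun. Same-numbered KO and WT libraries deviated together in every pair at P1 in the Pkd1 model (r = 0.347, 0.205 and 0.518) and not in every pair elsewhere, and the labels give no shared litter. Deviations from a mean of 3 are not independent, and library 3 stood apart in both groups. The chi-square per transcript between libraries 1 and 2 was 6.19 in KO and 5.15 in WT. Between library 3 and these it was 26.5 and 31.8 in KO and 31.6 and 23.4 in WT. The 3 values of r thus do not show 3 separate matched pairs. Library totals limit Fosb, with 4 counts in some libraries.

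Alternatives were RLE factors, DESeq2 1.42.0, other filters, the replicate block, a Y-linked covariate, a shared fit of 18 libraries and leaving out single libraries. The labels' 3 replicates per group were all used. Small RNA data of the study were not analysed here. A named result from the list of AP-1 targets is not reported here.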

Additional observations from a re-analysis of the deposited data

Results flagged for a closer look

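For 6 genes the difference between KO and WT changed between P1 and P7 in the Pkd1 model by the test of the change itself. The change on the log2 scale was 5.04 for Fos, 7.31 for Fosb, 1.31 for Jun, 2.06 for Junb, 2.33 for Atf3 and 2.71 for Egr1 (edgeR adjusted p = 0.00621, 0.0141, 0.00358, 0.000692, 0.0256 and 0.00801). In the Pkd2 model the same test passed for Junb at 1.66 and Egr1 at 1.95 (edgeR adjusted p = 0.0361 and 0.0191). P1 WT library 3 of the Pkd1 model and the unequal Y-linked counts of the P1 and P7 groups move with the Pkd1 values, and their part in the change was not tested beyond the values with and without them given in the report. Groups of 3 libraries are too small for a search for single outlying libraries by gap and range.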

How the results depend on the processing

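Over the alternatives 211 counts of genes passing stayed within 1.5 times of their value and 27 did not. Single gene results kept their direction and side of the threshold in 751 cases, lost the threshold in 42, gained it in 22 and reversed in 11. DESeq2 moved the number of genes passing to 1 for KO against WT at P3 in the Pkd1 model, to 1 (Pkd1) and 2 (Pkd2) for WT P3 against P1, to 1 for WT P7 against P1 in the Pkd1 model (where it gave Fosb no adjusted p), and to 1 for WT of the models at P1. Of all transcripts, DESeq2 passed 248, 384, 636, 3607 and 250 in these comparisons, in the same order. The numbers of the replicate block went with shared deviations in every pair only in the Pkd1 model at P1. The block moved WT P7 against P1 in the Pkd1 model to 1 and the change of the KO difference in the Pkd2 model to 1. It changed no other count of genes passing beyond 1.5 times. The Y covariate moved the Pkd1 model to 0 genes for KO against WT at P7, 0 for WT P7 against P1 and 0 for the change of the KO difference, and reversed Fosb to 0.16 at P1, -1.18 at P7, 0.79 for WT P7 against P1 and -1.34 for the change, and Atf3 to -0.25 for the change. With this covariate 6 of all 12527 transcripts passed for KO against WT at P7, 1012 for WT P7 against P1 and 0 for the change. The cause of these moves and reversals was not tested. Leaving out single libraries gave 3 to 6 genes for KO against WT at P7 in the Pkd1 model, 0 to 3 for WT P7 against P1 in the Pkd1 model, 0 to 1 for WT P3 against P1 in the Pkd2 model, 0 to 2 for the change in the Pkd2 model and 0 to 1 for the model difference at P7. Single removals put Fosb between -4.79 and 0.50 for KO against WT at P1, Fosl1 between -0.04 and 0.36 at P7, Fosb between -4.45 and 0.51 for WT P3 against P1, Fos between -2.13 and 0.11 and Fosb between -3.83 and 1.13 for WT P7 against P1, all in the Pkd1 model, and Fosb between -0.22 and 4.73 for WT of the models at P1. All transcripts passing at P7 ranged from 6 to 3882 around 1721 (Pkd1) and from 650 to 2264 around 1753 (Pkd2). Relations of Fos passing were 3 within Pkd1 and 1 within Pkd2 libraries, in place of 5. The TMM factors over the 6 libraries of a P7 comparison and the comparison of the models without the P7 KO libraries with adrenal markers were chosen after seeing the data and changed no count of genes passing. The largest SE, 1.78, was that of Fosb for the difference between the models at P1, which held P1 WT library 3 of the Pkd1 model. For KO against WT in the Pkd2 model the SE of Fosb was 0.40 at P1 and 0.30 at P7.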
